A study of Mus musculus with 4 samples.

Results

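The human HOX genes lie in 4 clusters, HOXA on chromosome 7, HOXB on chromosome 17, HOXC on chromosome 12 and HOXD on chromosome 2, and the accessible regions of HEK293 cells inside these clusters were examined. A peak was taken when it overlapped by at least 1 bp a window laid over a cluster, in GRCh38 coordinates. The windows ran from 27090000 to 27220000 for HOXA, from 48525000 to 48740000 for HOXB, from 53935000 to 54060000 for HOXC and from 176085000 to 176195000 for HOXD. They held 80 of the 48751 peaks in the deposited list, with 24 peaks in HOXA, 26 in HOXB, 16 in HOXC and 14 in HOXD, and all 80 lay wholly inside their window. The 38 genes considered were 10 of HOXA, 10 of HOXB, 9 of HOXC and 9 of HOXD.

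HEK293 is an established cell line derived from human embryonic kidney. The 4 ATAC-seq libraries came from cells transfected for 6 h with 1 μg/mL of the dCas9-HT7 plasmid, which encodes a catalytically inactive Cas9 joined to a HaloTag, and with 25 nM of a TRAFTAC, a DNA-RNA hybrid whose DNA is bound by a transcription factor. In 2 libraries it was the NFkB TRAFTAC and in the other 2 the scrambled TRAFTAC, and per the series' design both groups then received 5 ng/mL TNF-alpha and the HaloTag PROTAC HP14 at 25 μM for 19 h. The transfection was transient and the cell line was one, and the labels do not say whether replicates were separate cultures. The peaks were called on the 4 libraries merged, so every value below pools both TRAFTACs, no value has a replicate error, and no test between clusters or ends could be made. GEO lists these samples as mouse, but 3163 of the peaks lay on chromosomes 20, 21 and 22, which the mouse lacks. Gene positions of GRCh38 were not used here, so no peak was assigned to a gene and the cell type was not checked against marker genes.

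HOX genes encode homeodomain transcription factors that set positional identity along the body axis. Within a cluster the genes are ordered as they are expressed along the embryo: those at the anterior end, such as HOXA2 and HOXB1 in the hindbrain, act towards the head, and those at the posterior end, such as HOXA13 and HOXD13 in the distal limb and HOXB13 in the prostate, act towards the tail. Genes of the same number in different clusters are paralogs, and HOXA11, HOXC11 and HOXD11 act together in the outgrowth of the embryonic kidney. Clusters can be held silent by Polycomb proteins over long stretches and opened stretch by stretch. From the known gene order, the anterior end was taken as the low coordinates in HOXA and HOXB and as the high coordinates in HOXC and HOXD.

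All 4 clusters were densely and broadly accessible. HOXA held 1.85 peaks per 10 kb, HOXC 1.28, HOXD 1.27 and HOXB 1.21, against 0.160 per 10 kb over chromosomes 1 to 22 and X, where each chromosome was counted up to its last peak. Peaks covered 24981 bp or 19.2% of the HOXA window, 17537 bp or 14.0% of HOXC, 15169 bp or 13.8% of HOXD and 27188 bp or 12.6% of HOXB. Over chromosomes 1 to 22 and X they covered 1.15%. The clusters' own chromosomes were sparser than the clusters, with 1.13% covered on chromosome 7, 2.75% on chromosome 17, 1.19% on chromosome 12 and 0.949% on chromosome 2. Chromosome 17, the host of HOXB, was thus the most densely covered of these chromosomes, and the HOXB window the least covered of the 4. That window was also the longest, at 215 kb, and included a stretch of 39676 bp without a peak. Its anterior end, up to the midpoint, was 19.1% covered and its posterior end 6.16%. The covered share of HOXB thus depends on how the window was drawn. With peaks per 10 kb taken from the first to the last peak, HOXB was still lowest, at 1.294 against 1.315 in HOXC, the next.

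The clusters were also set against windows of their own length laid end to end along the same chromosome. On chromosome 7, 446 of 1225 such windows of 130 kb held no peak and the median window had 695 bp in peaks. None of the other windows reached the covered length of the cluster, with 0 on each of the 4 chromosomes. The windows were laid to start at the cluster, which favours it, so windows moved in steps of 5 kb were examined as well, leaving out those that touched the cluster. Again 0 reached the covered length on chromosome 7 (31791 windows), chromosome 12 (26580 windows) and chromosome 2 (48372 windows). The highest covered lengths found there outside the clusters were 13664 bp, 15097 bp and 13670 bp. On chromosome 17, 26 of 16522 windows of 215 kb reached that of HOXB, up to 30268 bp. By number of peaks, 0 windows matched HOXA, whereas 97 matched HOXB, 24 HOXC and 33 HOXD. HOXA was therefore unmatched on its chromosome in both measures and HOXC and HOXD in covered length, while HOXB was matched by a small share of the windows in both. These are descriptions of 1 list, and overlapping windows are not independent.

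The windows of equal length beside HOXA and HOXD held few peaks, though they do not show how sharply the density changed at the edges. The window of equal length beyond the anterior end of HOXA held 3 peaks (0.775% covered) and that beyond its posterior end 2 peaks (1.44%). Beyond HOXD there were 2 peaks on either side, with 1.20% covered on the anterior and 2.60% on the posterior side. In HOXD the peaks were already sparser inside the window, where the anterior of 3 equal stretches held 2 peaks and was 8.17% covered. At HOXC peaks were few on the posterior side alone, with 1 peak (0.312%) beyond that end and 14 peaks (7.27%) beyond the anterior end. HOXB lay among other peaks, with 14 in each neighbouring window (3.88% and 4.75%). The nearest peaks outside the windows lay 8754 and 15153 bp away at HOXA, 2467 and 27325 bp at HOXB, 66066 and 21006 bp at HOXC and 4127 and 74188 bp at HOXD, on the low and the high coordinate side. The outermost members lay 5578 and 9177 bp inside the HOXA window, 3413 and 10709 bp inside HOXB, 3252 and 91 bp inside HOXC and 1140 and 5935 bp inside HOXD, so the anterior limit of the HOXC window ran close to a peak.

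**Figure D1:**
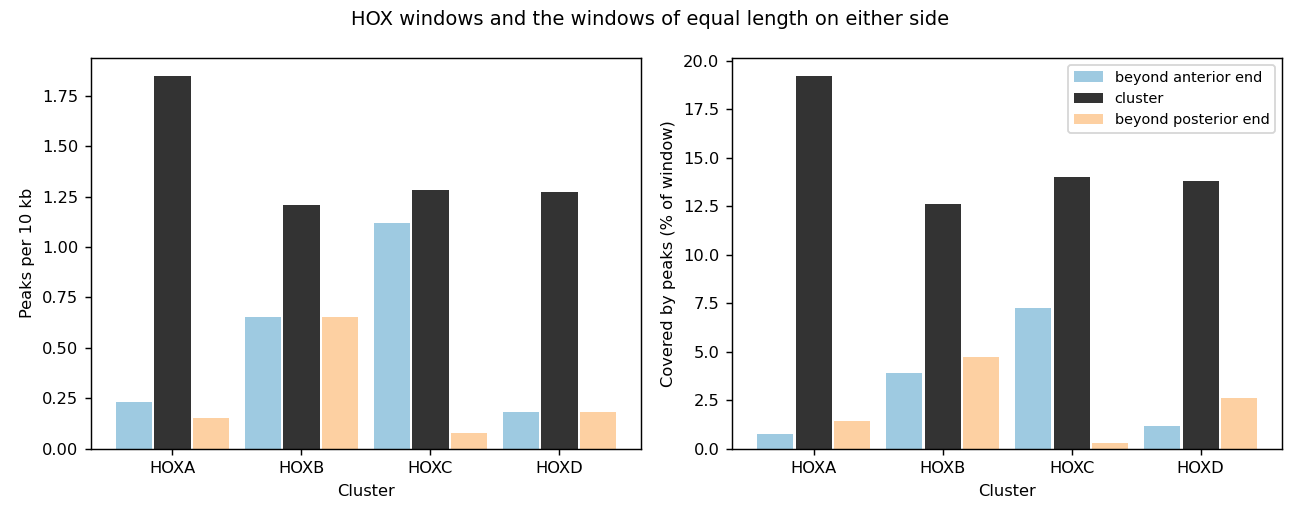
Peaks per 10 kb (left) and percent of the window covered by peaks (right) in each HOX window and in the windows of equal length directly beyond its anterior and posterior ends. Covered percent was 12.6% to 19.2% inside the clusters and at most 7.27% beside them, and the anterior side of HOXC was the densest neighbour.

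The peaks of the clusters were wide. Their median width was 997 bp (95% order-statistic interval 787 to 1143 bp, n = 80), against 590 bp over the whole list, and 58 of the 80 were wider than the median of the list, which 49.9% of all peaks were. Medians were 1005 bp in HOXA (626 to 1349 bp), 862.5 bp in HOXB (564 to 1328 bp), 1066.5 bp in HOXC (333 to 1482 bp) and 1081 bp in HOXD (611 to 1497 bp). The intervals of the 4 clusters overlapped, so the clusters could not be ordered by width. A width of at least 1000 bp was reached by 40 of the 80 peaks, or 50.0% (Wilson interval 39.3% to 60.7%), against 22.9% of all peaks. These intervals treat neighbouring peaks as independent and cover counting error only.

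In contrast, the fold enrichment of these peaks was low. This is the number of fragments stacked at the summit relative to the local background that the peak caller estimates around it, as a linear ratio. The median was 4.44 (95% interval 3.80 to 4.89) against 5.60 for the whole list, and 28 of the 80 peaks had a fold of at least 5, or 35.0% (Wilson interval 25.5% to 45.9%), against 56.8% of all peaks. HOXA had a median fold of 3.48 (2.35 to 4.65), HOXC of 3.92 (3.29 to 5.01), HOXB of 4.60 (3.73 to 5.71) and HOXD of 6.14 (3.52 to 8.09). The intervals of HOXB and HOXD include the median of the list, and those of HOXA and HOXC lie below it. In HOXD, 10 of the 14 peaks had a fold of at least 5, or 71.4% (Wilson interval 45.4% to 88.3%). That interval includes the share of all peaks, 56.8%. Folds ranged from 1.62 in HOXA to 12.9 in HOXC, while the highest fold of the whole list was 40.2.

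The fold is a quotient, and its parts moved in different ways. The summit pileup, which is the number of fragments over the 4 libraries together at the summit, had a median of 131.5 in the clusters (95% interval 109 to 159) against 56 in the whole list, and 67 of the 80 peaks were above the median of the list, against 49.5% of all peaks. The local background had a median of 32.9 fragments (24.5 to 39.5) against 8.56, and was above the median of the list in 74 of the 80 peaks, against 50.0% of all peaks. Whereas 34.4% of all peaks lay within 1% of the lowest background of the list, 6.32 fragments, this held for 2.50% of the HOX peaks, which is 2 of them. Around the summits, a median of 1996.5 bp of the surrounding 10 kb lay inside peaks in the clusters, compared with 795 bp in the whole list. The part of neighbouring peaks in the local background was not tested.

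The local background was highest in HOXA, with a median of 54.0 fragments (39.5 to 69.3), and lower in HOXB with 33.8 (15.2 to 39.9), HOXC with 24.2 (16.4 to 36.8) and HOXD with 19.4 (8.87 to 54.7). Only the intervals of HOXA and HOXC did not overlap. The median summit pileup was 214.5 in HOXA (128 to 265), 133.5 in HOXB (80 to 191), 116.5 in HOXD (56 to 159) and 92.5 in HOXC (57 to 189), with overlapping intervals. HOXA was thus first in summit pileup and last in fold. When the fold was taken over the lowest background of the list in place of the local one, an alternative chosen after the data were seen, the medians became 29.4 in HOXA, 18.4 in HOXB, 16.1 in HOXD and 12.8 in HOXC, against 7.79 for all peaks. With the same background for every peak, this fold is the summit pileup rescaled, so it repeats the order of the pileups and adds no further evidence. All 4 medians then lay above that of the list, whereas on the local fold only that of HOXD did. A high −log10 q-value, of at least 50, was found for 34 of the 80 peaks, or 42.5% (Wilson interval 32.3% to 53.4%), against 33.6% of all peaks.

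**Figure D2:**
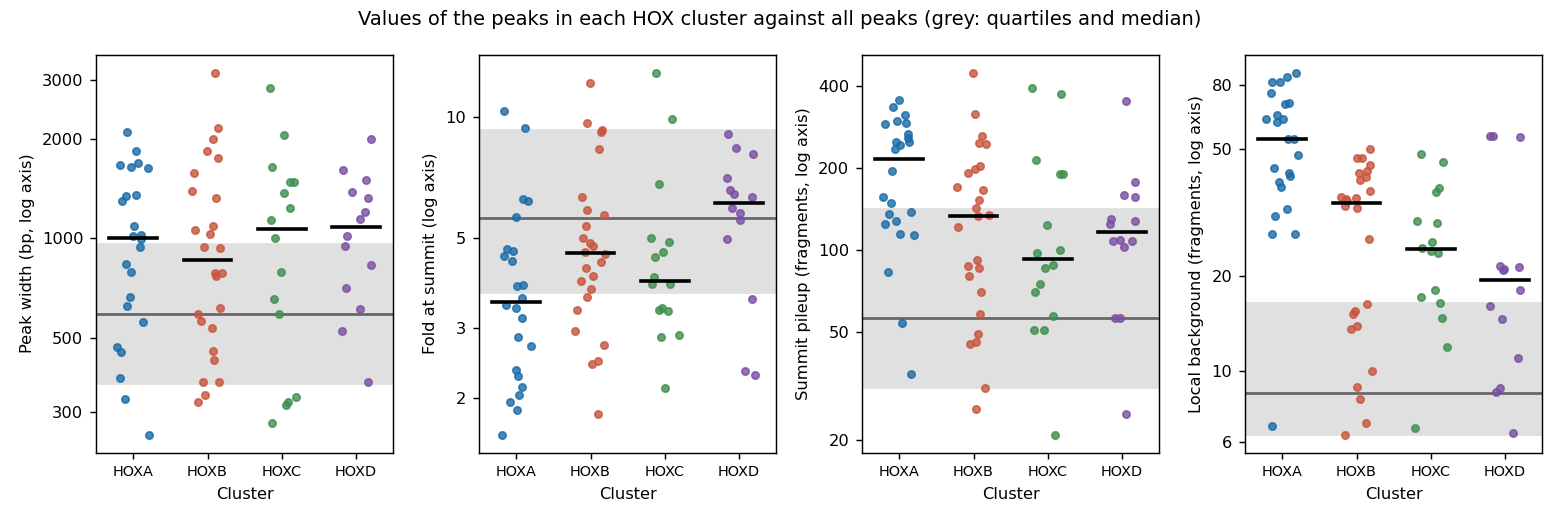
Width in bp, fold at the summit, summit pileup and local background in fragments for each of the 80 peaks, by cluster, on log axes. Black bars are cluster medians, the grey band spans the quartiles of the whole list and the grey line its median, and the cluster medians lie above those of the list in width, pileup and background, and in fold below it in HOXA, HOXB and HOXC.

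The HOXA cluster, which includes HOXA9, known for its role in blood progenitors, and HOXA10, which acts in the uterus and the lumbar spine, held 2 peaks of high fold near its edges, with peaks of lower fold between them. The strongest peak by fold lay near the anterior edge, on chromosome 7 from 27095579 to 27097246, with a fold of 10.4 (counting interval 9.23 to 11.6) from 290 fragments over a background of 27.0. The next by fold, which was also the widest of the cluster, lay near the posterior edge from 27198901 to 27200992, with a width of 2092 bp and a fold of 9.39 (8.35 to 10.5) from 297 fragments over 30.8. Between them no peak exceeded a fold of 6.27, although the pileups reached higher. The highest pileup of the cluster, 355 fragments, belonged to a peak from 27179596 to 27180537 whose fold was 5.64 (5.07 to 6.26), over a background of 62.1. The highest background of any HOX peak, 87.2 fragments, was found for the peak from 27168816 to 27170451, which had 334 fragments at its summit and a fold of 3.80 (3.40 to 4.23). The lowest fold of all 80 peaks, 1.62 (1.37 to 1.92), belonged to the peak from 27147922 to 27148376, with 138 fragments over a background of 84.6, and 0.0759% of the whole list had a lower one. That pileup alone was above those of 74.5% of all peaks.

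When the HOXA window was cut into 3 equal stretches, the middle one held 12 peaks and was 30.8% covered, the outer ones held 6 peaks each and were 13.7% covered on the anterior and 13.2% on the posterior side. The middle stretch had a median fold of 3.29 and a median background of 69.7 fragments, and the outer ones median folds of 4.77 and 4.59 over backgrounds of 38.7 and 45.8. Their median pileups were 189 (54 to 290) and 181 fragments (35 to 355), against 214.5 (138 to 292) in the middle. The intervals of the median folds were 1.96 to 10.4 and 1.88 to 9.39 in the outer stretches and 2.13 to 3.83 in the middle. Both sets of intervals overlapped, so neither the folds nor the pileups of the stretches could be ordered. Gaps between neighbouring peaks had a median of 2536 bp in HOXA. The longest stretch without a peak measured 14138 bp and ran from 27115606 to 27129743, in the anterior part, between a peak with a fold of 2.70 (2.23 to 3.25) and one with a fold of 6.27 (5.51 to 7.10).

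**Figure D3:**
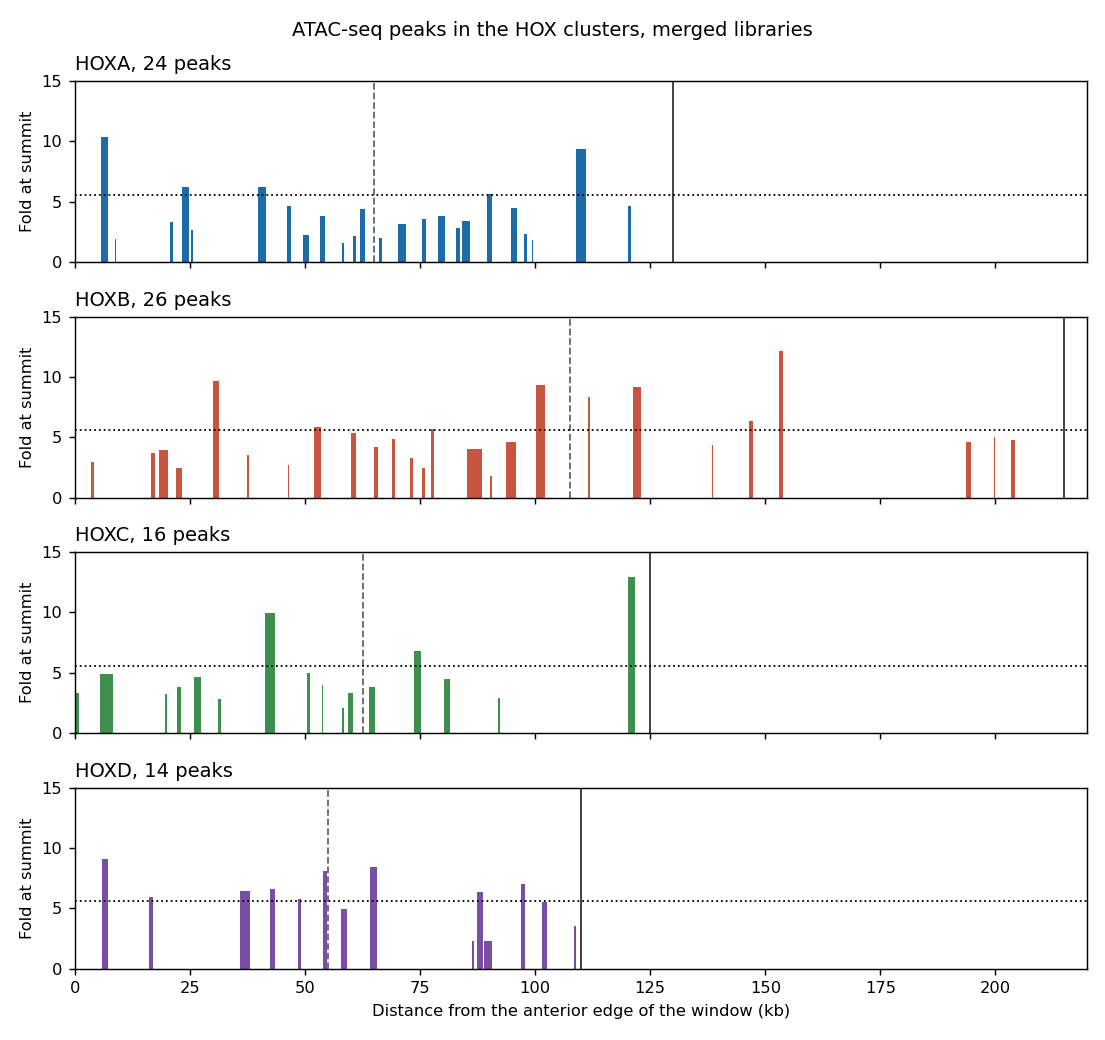
Fold at the summit (bar height) and extent (bar width) of each peak against the distance from the anterior edge of the window in kb. The dashed line marks the midpoint, the solid line the posterior edge and the dotted line the median fold of the whole list, 5.60, above which 25 of the 80 peaks rise.

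In HOXB, which includes HOXB4, studied in blood stem cells, and HOXB13 at a distance from the other genes of its cluster, the peaks thinned out towards the posterior end. The row was broken by the longest stretch without a peak in any of the clusters, 39676 bp from 48678895 to 48718570. At its anterior border lay the peak with the highest fold of the cluster, on chromosome 17 from 48677957 to 48678894, with a fold of 12.2 (10.2 to 14.4) that rested on 133 fragments over a background of 10.0. The peak at its other border had a fold of 4.62 (3.40 to 6.15) from 45 fragments, and the last 2 peaks of the window had folds of 5.00 (3.98 to 6.21) and 4.78 (3.74 to 6.03). The counting intervals of these 3 posterior peaks overlapped each other and lay below that of the peak before the gap.

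The largest pileup of all 80 peaks, 446 fragments, lay close to the middle of the HOXB window from 48625067 to 48627064, with a fold of 9.31 (8.47 to 10.2) and a background of 47.0. The other peaks of HOXB with a fold above 9 lay from 48554917 to 48556310, with 9.68 (8.55 to 10.9), and from 48646166 to 48647912, with 9.20 (8.22 to 10.3). The widest HOX peak spanned 3163 bp from 48610266 to 48613428, was wider than 99.8% of all peaks, and had a moderate fold of 4.03 (3.42 to 4.73). A narrow peak of 321 bp from 48615205 to 48615525 had the lowest fold of the cluster, 1.82 (1.47 to 2.23), with 92 fragments over a background of 50.0.

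**Figure D4:**
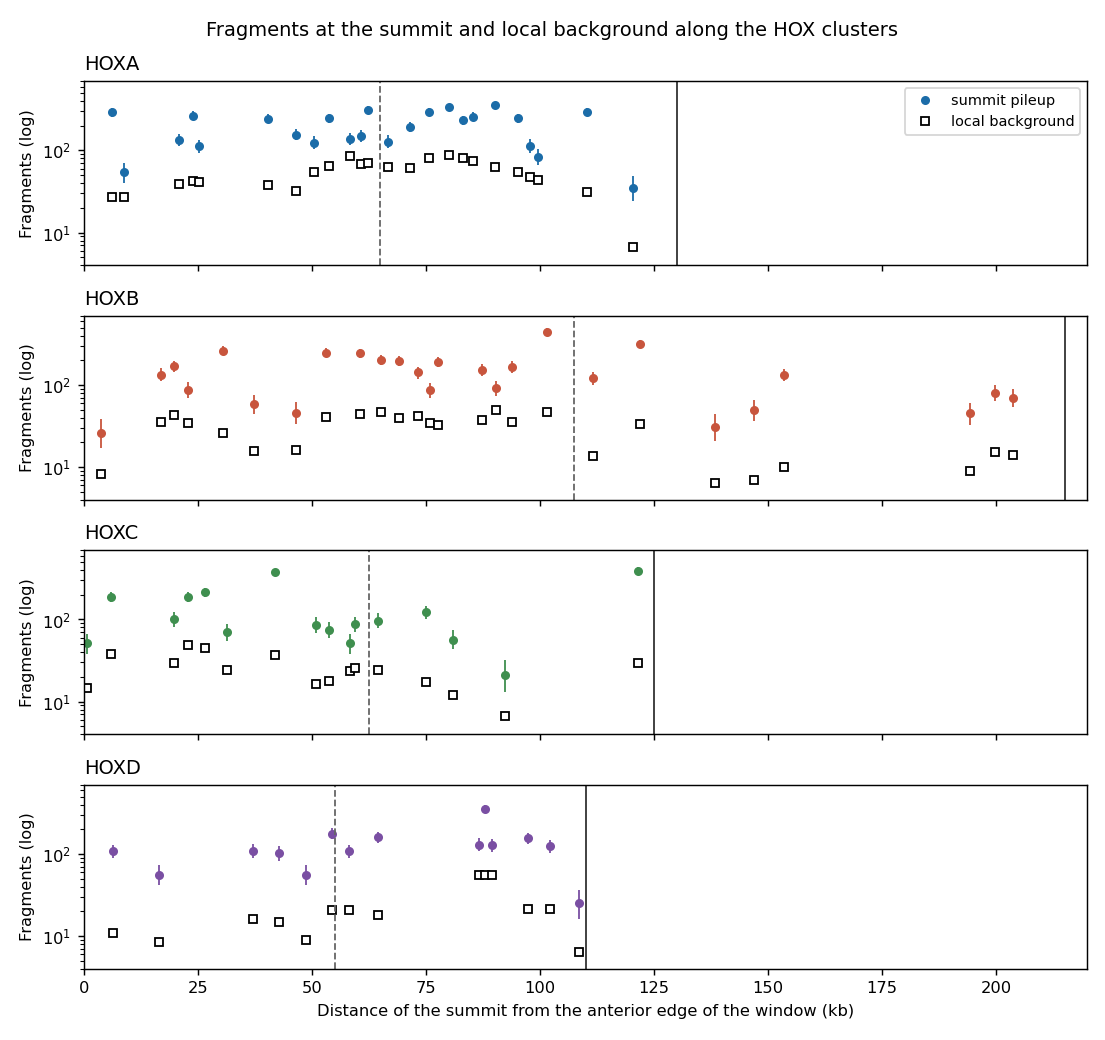
Summit pileup (filled circles, with exact Poisson 95% intervals) and local background (open squares), in fragments over the 4 merged libraries on a log axis, against the distance of the summit from the anterior edge in kb. The background reaches 87.2 fragments within HOXA, and is at most 15.2 for 7 of the 8 peaks beyond the midpoint (dashed) of HOXB.

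HOXC includes HOXC6 and HOXC8 of the trunk and HOXC13, a gene needed for hair and nails. Its highest fold, and the highest of all 80 peaks, was found at the posterior edge, on chromosome 12 from 53938253 to 53939896, with 12.9 (11.7 to 14.3) from 391 fragments over a background of 29.3. This peak stood apart: the longest gap of the cluster, 27815 bp from 53939897 to 53967711, separated it from a peak with 21 fragments at its summit, the smallest pileup of all 80, and a fold of 2.88 (1.83 to 4.33). The other strong peak of HOXC lay from 54016640 to 54018697, with 374 fragments and a fold of 9.92 (8.95 to 11.0). The remaining 14 peaks had folds of 2.12 to 6.84. The lowest, 2.12 (1.59 to 2.78), belonged to the narrowest peak of the cluster, 278 bp from 54001668 to 54001945. The widest peak measured 2851 bp from 54051782 to 54054632, with a fold of 4.89 (4.22 to 5.64).

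HOXD, with HOXD10 and HOXD11 of the limb and lumbosacral region, had the fewest peaks, in the shortest window (110 kb), and the highest median fold. The interval of that median overlapped those of the other clusters. Its highest fold was at the anterior edge, on chromosome 2 from 176187745 to 176189065, with 9.10 (7.48 to 11.0) from 108 fragments over a background of 11.0. Its largest pileup, 352 fragments, lay in the posterior part from 176106291 to 176107673, with a fold of 6.33 (5.69 to 7.03). That peak was flanked at distances of 254 and 578 bp by weaker peaks with folds of 2.29 (1.91 to 2.72) and 2.34 (1.95 to 2.77), and all 3 shared a background of 54.7 to 55.1 fragments, while the other 11 peaks of HOXD had backgrounds of 6.38 to 21.5. The gap of 254 bp was the smallest among the HOX peaks. The widest peak of HOXD measured 1998 bp from 176157061 to 176159058, with a fold of 6.46 (5.31 to 7.78). The longest stretches without a peak were 20718 bp, from 176108777 to 176129494, and 18927 bp, from 176159059 to 176177985. The longer one was bordered by the peak with a fold of 2.34, which had 130 fragments at its summit. On its anterior side lay a peak from 176129495 to 176130991 with a fold of 8.40 (7.16 to 9.81) from 159 fragments.

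Over the 4 clusters, the 76 gaps between neighbouring peaks had a median of 4169 bp, compared with 18686 bp over chromosomes 1 to 22 and X. Of these gaps 10 were longer than 10 kb, with 2 in HOXA, 3 in HOXB, 3 in HOXC and 2 in HOXD. The median gap was 2536 bp in HOXA, 4487 bp in HOXC, 4895 bp in HOXD and 5406 bp in HOXB.

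The anterior and posterior ends were then compared by cutting each window at its midpoint and giving each peak to the end that held its summit. The 4 clusters did not share a direction. HOXA had 12 peaks at each end, with 17.6% of the anterior and 20.8% of the posterior end covered. In HOXB the anterior end held 18 peaks (1.67 per 10 kb, 19.1% covered) and the posterior end 8 (0.744 per 10 kb, 6.16% covered). HOXC leaned the same way, with 11 peaks (1.76 per 10 kb, 18.4% covered) at the anterior and 5 (0.800 per 10 kb, 9.70% covered) at the posterior end. HOXD leaned the other way, with 6 peaks (1.09 per 10 kb, 12.5% covered) at the anterior and 8 (1.45 per 10 kb, 15.1% covered) at the posterior end. Because gene positions were not used, the ends are parts of a window and were not matched for the genes they hold. The posterior end of HOXB included the stretch of 39676 bp without a peak.

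By the median folds alone, fold and density ran in opposite directions between the ends of HOXB, HOXC and HOXD. The intervals of these medians overlapped between the ends of HOXB and of HOXD, and the posterior end of HOXC had too few peaks for an interval. The median fold in HOXB was 3.97 at the anterior and 5.67 at the posterior end, where the local background had medians of 36.2 and 11.8 fragments. In HOXC it was 3.85 and 4.49, over backgrounds of 25.6 and 17.1. In HOXD it was 6.52 at the anterior and 5.28 at the posterior end, over backgrounds of 12.8 and 21.4. In HOXA, where the number of peaks was equal, the median fold was 3.59 and 3.48, over backgrounds of 41.6 and 61.5. The folds of single peaks overlapped widely between the ends of every cluster, from 1.62 to 10.4 and from 1.88 to 9.39 in HOXA, for example, and from 5.78 to 9.10 and from 2.29 to 8.40 in HOXD. Over the lowest background of the list in place of the local one, the fold is the summit pileup rescaled. The ratio of the anterior to the posterior median fold then turned from 1.03 to 0.634 in HOXA. It turned from 0.701 to 2.11 in HOXB and from 1.24 to 0.819 in HOXD. With the ends taken as the outer of 3 equal stretches, the anterior end of HOXD kept 2 peaks and the posterior end of HOXC 2, and the ratio of anterior to posterior covered length moved from 0.824 to 0.533 in HOXD and from 1.89 to 3.78 in HOXC.

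By their medians alone, the summit pileups at the ends ran against the folds in HOXA, HOXB and HOXD, and with them in HOXC. The intervals of both medians overlapped between the ends of HOXA, HOXB and HOXD. In HOXA they were 124 to 265 and 114 to 297 fragments for pileup, and 2.13 to 6.19 and 2.35 to 4.65 for fold. The posterior end of HOXC, with 5 peaks, had no interval, so these orders are not resolved. In HOXB the median pileup was 159 fragments at the anterior and 75 at the posterior end, the reverse of the order of the folds. In HOXA it was 152.5 and 241, and in HOXD 105 and 128.5, with the posterior end higher in both although its fold was lower. In HOXC it was 88 and 97, higher at the posterior end like the fold. Widths differed little in HOXA (medians of 1020 and 968 bp), HOXB (910 and 854 bp) and HOXD (1046 and 1109.5 bp). In HOXC the posterior end had wider peaks, with a median of 1369 bp against 790 bp, but it rests on 5 peaks.

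**Figure D5:**
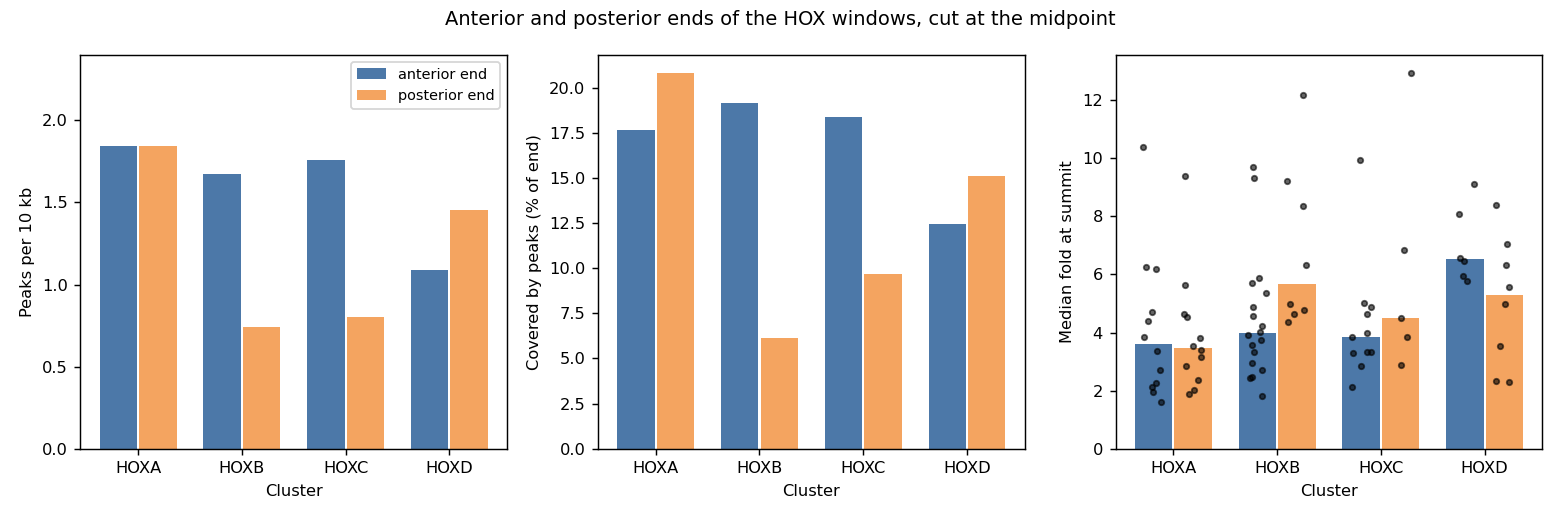
Peaks per 10 kb (left), percent covered (middle) and median fold (right, with single peaks as points) at the anterior and posterior ends of each window, cut at the midpoint. HOXB and HOXC have more peaks at the anterior end, HOXD has more at the posterior end, HOXA has 12 at each, and the single folds overlap in every cluster.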

How the data were processed

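ATAC-seq was made from 50000 HEK293 cells per library with 8 cycles of PCR. Per the submitters' processing notes, Trimmomatic, Bowtie2, Picard, MACS2 and the build GRCh38.p10 were used. What the authors deposited is 1 peak list for the merged libraries, holding for each peak its position, a score, the fold as a linear ratio, the −log10 p-value and q-value, and the summit. Columns of single samples numbered 0, and the depth per library is unknown from the list.

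Windows, members and alternatives were chosen with earlier results of these data known. Counts, covered bp, medians and gaps were computed in Python (3.11.15; scipy 1.17.1, pandas 2.3.3, numpy 2.4.6) and drawn with matplotlib 3.10.9. Positions are 1-based. Summit pileup and local background were solved from fold (pseudocount 1) and p-value under a Poisson distribution, within 0.001, in 48727 peaks including all 80 members, a search tested on simulated data. Fold intervals propagate the exact Poisson interval of the pileup alone. Peaks named were, per cluster, those of highest and lowest fold, the widest and those beside the longest gap, with others named after their values were seen. Gene start sites, cofactor, Polycomb and kidney marker genes and sequences were not analysed here, because the only genome reference at hand was of the mouse.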

Additional observations from a re-analysis of the deposited data

How the results depend on the processing

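Of 108 values recomputed for 36 results, 93 stayed within 1.5 times of the value given (for medians by cluster, within their interval) and in the same direction. This count includes alternatives that repeat the value given, so it overstates the stability. All 80 peaks lay wholly inside their windows, so keeping only such peaks changed nothing. Cutting the ends midway between the outermost peaks left every ratio unchanged. In HOXD no peak had a −log10 q-value under 5. With ends taken as the outer of 3 equal stretches, the ratio of anterior to posterior covered length in HOXA turned to 1.03 and that of median width in HOXD to 1.31. In HOXC the ratios became 3.78 for covered length, 0.905 for median width and 0.453 for median fold, with 2 peaks in the posterior stretch, and in HOXD 0.333 for peaks per 10 kb and 0.533 for covered length, with 2 peaks in the anterior stretch. When weaker peaks were dropped (−log10 q-value under 5), the ratio of the HOXA cluster to its flanks in peaks per 10 kb rose from 9.60 to 15.3. Over the genome-wide background, chosen after the data were seen, median folds were 29.4 in HOXA, 18.4 in HOXB, 12.8 in HOXC and 16.1 in HOXD. The ratio of anterior to posterior median fold then turned to 0.634 in HOXA, 2.11 in HOXB and 0.819 in HOXD. With the same background for every peak this fold is the summit pileup rescaled, so these values restate the pileups. No paired analysis was possible because single libraries have no values, and single replicates could not be left out. The analysis of gene start sites was not run. Pooled counting limits the weakest HOX peak, with 21 fragments at its summit.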

Other observations

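Of the 80 HOX peaks, 29 had a fold below 3.65. That is the lower quartile of the whole list, so by definition the lowest quartile of all peaks lay below it. These 29 were 13 of the 24 peaks of HOXA, 7 of 26 in HOXB, 6 of 16 in HOXC and 3 of 14 in HOXD. Their summit pileups had a median of 100 fragments, above the 56 of the whole list, over a median background of 41.2 fragments. The other 51 peaks had medians of 166 fragments at the summit and 29.3 in the background. Since the fold is the quotient of pileup and background, a higher background relative to the pileup is built into this split.

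The few peaks beside the HOXD window had high folds. Those beyond its posterior end had folds of 12.8 and 13.0, and those beyond its anterior end folds of 10.8 and 14.1. All lay above the highest fold inside HOXD, 9.10. Their summit pileups were 278 and 305 fragments beyond the posterior and 78 and 162 beyond the anterior end. All of these lay below the highest pileup inside HOXD, 352. The peaks beyond the posterior end of HOXA had folds of 9.97 and 14.7, whereas those beyond its anterior end had folds of 2.60 to 5.74 and a median summit pileup of 18 fragments.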
